A study of Mus musculus with 36 samples.

Results

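The genes of the presynaptic release machinery were described here by 9 members: *Bsn*, *Pclo*, *Rims1*, *Unc13a*, *Syn1*, *Syp*, *Syt1*, *Snap25* and *Vamp2*. They were chosen by name, as active zone scaffolds, synaptic vesicle proteins and SNARE proteins, from the 55450, 53379 and 54146 genes in the annotations of the 1-, 2- and 3-month libraries. All 9 were found at each age, and all 9 passed the filter on low counts. The study compared *Tpp1*-/- mice, which lack the lysosomal protease TPP1 and model the childhood disease cLINCL (CLN2), with unaffected siblings. Poly(A) RNA was sequenced from forebrain/midbrain (F/M) and cerebellum (Cb) at 1, 2 and 3 months, with 3 control and 3 *Tpp1*-/- libraries per region and age and 36 in all. The *Tpp1* gene was disrupted by gene targeting in the germline, so every cell of a *Tpp1*-/- mouse carries the mutation. Controls were wild type, except that control replicate 3 of 1 month was *Tpp1*+/- in both regions. Each group held 2 males and 1 female at 1 and 3 months and 3 males at 2 months. The strain background was not given in the sources used here.

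Neurotransmitter is released where synaptic vesicles fuse with the presynaptic membrane at the active zone. Bassoon (*Bsn*) and Piccolo (*Pclo*) are very large scaffolds of this zone, RIM1 (*Rims1*) tethers vesicles and calcium channels there, and Munc13-1 (*Unc13a*) primes vesicles for fusion. Synapsin I (*Syn1*) holds vesicles in the reserve pool, synaptophysin (*Syp*) is an abundant vesicle membrane protein, and synaptotagmin 1 (*Syt1*) is the calcium sensor of fast release. SNAP-25 (*Snap25*) on the plasma membrane and synaptobrevin 2 (*Vamp2*) on the vesicle are SNARE proteins, which zip together with syntaxin 1 to drive fusion.

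Reads were counted over all annotated exons of each gene, and the genes lie at these places of GRCm38 (mm10). The scaffolds are *Bsn* at chr9:108096022-108190384, minus strand and *Pclo* at chr5:14514918-14863459, plus strand, and the other active zone genes are *Rims1* at chr1:22286251-22805994, minus strand and *Unc13a* at chr8:71624417-71671757, minus strand. The vesicle genes are *Syn1* at chrX:20860511-20921004, minus strand, *Syp* at chrX:7638471-7653256, plus strand and *Syt1* at chr10:108497650-109010982, minus strand, and the SNARE genes are *Snap25* at chr2:136713453-136782428, plus strand and *Vamp2* at chr11:69088490-69092384, plus strand. Other genes lie on the opposite strand within some of them, such as *Timp1* in *Syn1*, and the counting was set to use strand. *Pclo* had 22457 bases of annotated exon, *Bsn* 15938 and *Unc13a* 12623, whereas *Vamp2* had 3809 and *Syn1* 3299. *Syt1* (8338), *Rims1* (7362), *Snap25* (6791) and *Syp* (5211) lay between them. These lengths were the same in the 3 annotations used for counting. RefSeq promoter windows, from 250 bases before to 50 after a start site on GRCm38.p6, were given for 7 members, with 2 windows for *Syt1*. Shown here are the windows of *Syn1*, *Unc13a* and *Syt1*, the members that were called lower in Cb than in F/M at all 3 ages (an adjusted p below 0.1 and a change of 1.5-fold or more), and of *Pclo*, which passed that adjusted p, though not the fold, in the opposite direction at 1 and 2 months. Each is read 5′ to 3′ on the strand of the gene, and capitals mark matches on either strand to GGGCGG (a GC box), TGACGTCA (the full cAMP response element) or GGTGCTGAA (letters within the RE1 element bound by the neuronal gene repressor REST).
Syn1: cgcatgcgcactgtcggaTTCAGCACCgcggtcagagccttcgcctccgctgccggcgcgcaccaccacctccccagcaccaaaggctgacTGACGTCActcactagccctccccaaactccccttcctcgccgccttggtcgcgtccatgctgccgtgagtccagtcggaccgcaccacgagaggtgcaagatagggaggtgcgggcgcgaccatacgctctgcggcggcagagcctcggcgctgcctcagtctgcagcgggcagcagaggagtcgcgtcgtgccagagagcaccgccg
Unc13a: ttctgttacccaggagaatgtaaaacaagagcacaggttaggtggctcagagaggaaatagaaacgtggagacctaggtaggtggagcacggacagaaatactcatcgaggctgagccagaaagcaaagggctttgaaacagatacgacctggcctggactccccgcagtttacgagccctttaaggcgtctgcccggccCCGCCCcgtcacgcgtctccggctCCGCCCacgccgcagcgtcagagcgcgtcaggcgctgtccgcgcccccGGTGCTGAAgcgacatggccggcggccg
Syt1: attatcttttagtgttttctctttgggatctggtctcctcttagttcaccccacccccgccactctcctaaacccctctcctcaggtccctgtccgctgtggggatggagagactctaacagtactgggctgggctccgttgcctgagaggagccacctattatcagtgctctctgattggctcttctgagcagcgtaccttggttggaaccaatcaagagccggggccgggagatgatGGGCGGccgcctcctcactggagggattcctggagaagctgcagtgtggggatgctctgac
Pclo: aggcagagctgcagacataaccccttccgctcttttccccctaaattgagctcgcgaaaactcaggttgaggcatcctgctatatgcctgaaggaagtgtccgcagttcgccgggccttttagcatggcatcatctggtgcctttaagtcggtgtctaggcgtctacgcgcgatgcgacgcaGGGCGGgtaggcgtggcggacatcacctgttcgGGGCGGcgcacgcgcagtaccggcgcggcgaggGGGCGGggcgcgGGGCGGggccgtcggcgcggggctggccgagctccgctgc

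The *Syn1* window covers chrX:20920869-20921168, minus strand, and the *Unc13a* window chr8:71671708-71672007, minus strand. The *Syt1* window shown covers chr10:109010926-109011225, minus strand, and the *Pclo* window chr5:14514668-14514967, plus strand. GGTGCTGAA was found in 2 of the 8 windows, those of *Syn1*, on the opposite strand, and *Unc13a*, and in 0.371% of all 32851 RefSeq windows. TGACGTCA was found only in *Syn1* among the members and in 1.79% of all windows. GGGCGG was found in *Pclo* (4 matches), *Rims1* (3), *Unc13a* (2), *Syp* (2) and the *Syt1* window shown (1), and in 35.7% of all windows. TATAAA was found in none of the 8 and in 13.6% of all windows. These matches describe letters in the windows and were not tested against expression.

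Library totals ranged from 10609896 to 29942380 assigned reads (median 21049839), and the lowest count of any member in any library was 2748, for *Rims1* in F/M of *Tpp1*-/- replicate 3 at 2 months. *Tpp1* checked the labels: its level in *Tpp1*-/- libraries (16.1 to 27.8 CPM, counts scaled to the TMM-adjusted library size) lay below every control library (42.1 to 110.8 CPM). Some *Tpp1* reads were still counted in the *Tpp1*-/- mice. The summed level of 12 cerebellar marker genes was at least 9326 CPM in every Cb library and at most 1157 CPM in every F/M library, and that of 10 forebrain markers was 642.6 to 800.5 CPM in F/M and 125.2 to 182.2 CPM in Cb. Libraries differed in the level of long transcripts, given here as the median log2 deviation, over genes with at least 10 kb of exon, from the mean of the same region and age. Cb of *Tpp1*-/- replicate 1 at 3 months (−0.38), Cb of *Tpp1*-/- replicate 1 at 1 month (−0.32) and F/M of control replicate 2 at 2 months (−0.22) were low, and the other 33 libraries lay between −0.054 and 0.17. These 3 libraries bear on the longest members, and for some comparisons values with and without them are given below.

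In control mice the 9 members spanned a wide range of abundance. In RPKM, the CPM per kilobase of exon (mean ± SD, n = 3), *Snap25* was the highest in F/M at 1 month with 346 ± 1.93. *Syp* (261 ± 2.74) and *Vamp2* (252 ± 4.44) followed, then *Syt1* (218 ± 7.37) and *Syn1* (149 ± 1.63). The active zone genes were lower: *Rims1* had 42.9 ± 1.496 RPKM, *Bsn* 29.95 ± 1.43, *Unc13a* 29.1 ± 2.24 and *Pclo* 17.8 ± 0.936. *Bsn* and *Unc13a* did not differ beyond their spread, while each other neighbouring pair in this order differed by more than the sum of its SDs. In Cb at 1 month *Snap25* was again highest (382 ± 18.7 RPKM) and *Unc13a* lowest (18.2 ± 3.87). There *Syp* (178 ± 6.803) and *Vamp2* (175 ± 11.1) did not differ beyond their spread, nor did *Syt1* (71.3 ± 2.97) and *Syn1* (67.1 ± 5.88), nor *Bsn* (25.9 ± 4.14), *Pclo* (25.7 ± 5.34) and *Unc13a*. Among the 21951 protein-coding genes of the 1-month annotation, ranked by mean RPKM in F/M of controls, *Snap25* was 27th, *Syp* 49th, *Vamp2* 55th, *Syt1* 68th and *Syn1* 131st, and the active zone genes ranked from 845th (*Rims1*) to 2598th (*Pclo*). In Cb *Syt1* ranked 366th and *Syn1* 399th, while *Snap25* ranked 25th. RPKM divide by all annotated exon of a gene, so a gene whose brain transcripts use only part of it is understated.

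**Figure D1:**
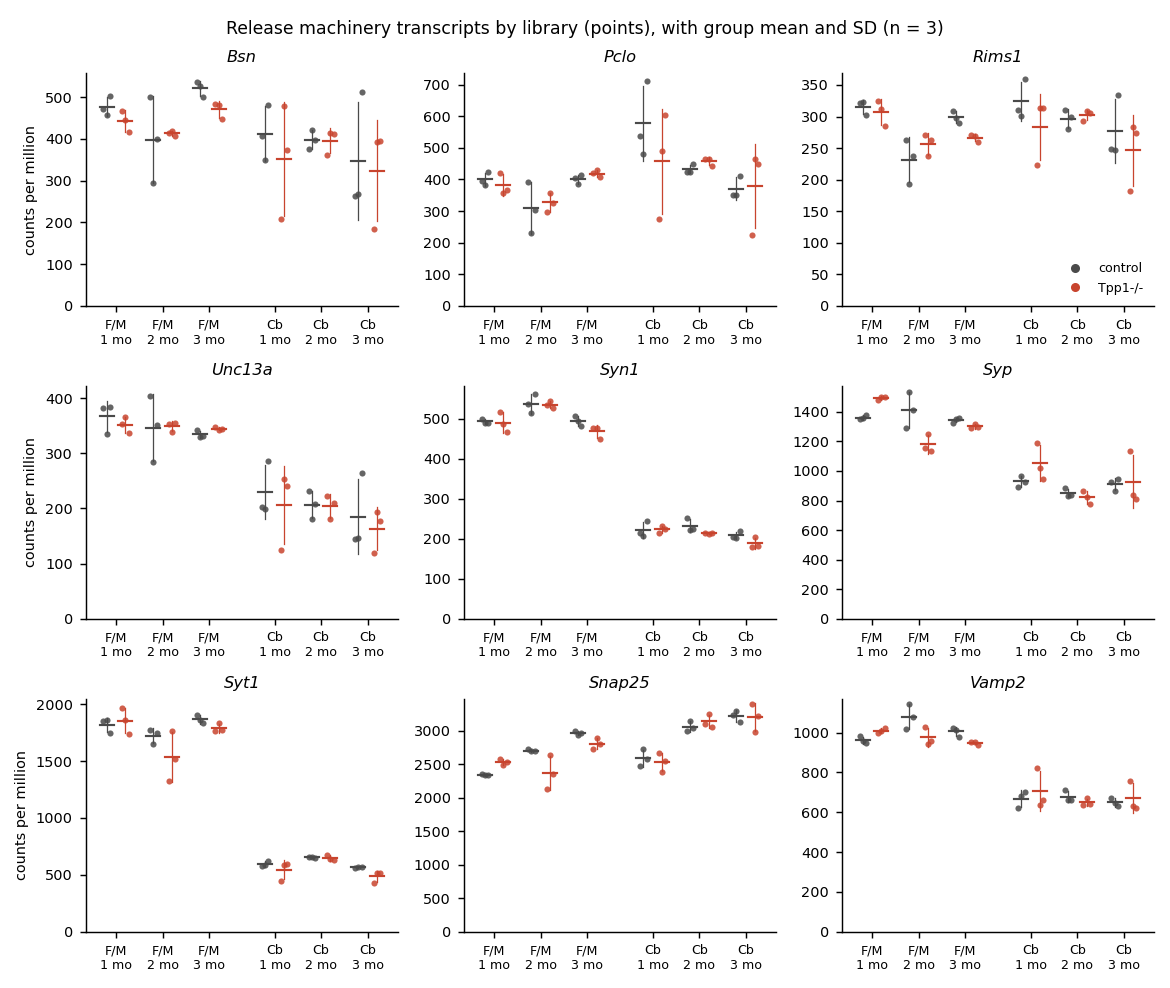
CPM of each of the 9 members (linear axes from 0) in every library by region and age, controls in grey and *Tpp1*-/- in red, with the group mean (bar) and SD (line) of 3 libraries. *Syt1*, *Syn1* and *Unc13a* sit lower in Cb than in F/M, *Snap25* sits at a like level in both, and within groups the points of *Bsn*, *Pclo* and *Unc13a* spread most relative to their means, in Cb at 1 and 3 months.

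The largest differences among the members were between the regions. In control mice, *Syt1*, *Syn1* and *Unc13a* were lower in Cb than in F/M at all 3 ages, *Vamp2* at 2 and 3 months, *Syp* at 2 months and *Bsn* at 3 months, called by edgeR's quasi-likelihood test where the Benjamini-Hochberg adjusted p was below 0.1 and the change 1.5-fold or more. By this rule 3 of 9 members were called at 1 month, 5 at 2 months and 5 at 3 months, all lower in Cb, beside 36.9%, 39.3% and 37.7% of all genes tested in either direction and 21.1%, 21.9% and 19.9% in the lower direction. The libraries of the regions did not overlap for 7 of 9 members at 1 month, 8 at 2 months and 6 at 3 months, beside 65.9%, 67.6% and 63.6% of all genes, and without the fold minimum 6, 8 and 6 members passed, beside 59.4%, 70.1% and 57.8%. Regional separation was thus common among all genes, and the members' counts of separated libraries are read against that. Of 14 pan-neuronal genes that are not members, 5, 5 and 4 were called lower and 1, 3 and 1 higher in Cb (median log2 difference −0.20, −0.28 and −0.16). Their summed level was 5940.0 to 6318 CPM in F/M and 4611 to 4947 CPM in Cb of controls. The part of neuronal content in the members' difference was not tested. Postsynaptic genes, taken for comparison, were called lower in Cb for 10, 10 and 11 of 16 (median −0.83, −1.03 and −0.84) and called higher for 1 at each age. Microglial markers were called lower in Cb for 12 of 12 at each age (median −1.28, −1.59 and −1.33). Of 10 astrocyte markers 4 were called higher and 1 lower at each age, and of 10 oligodendrocyte markers 2, 2 and 3 were called lower and 0 higher. Choroid plexus markers were called higher for 4, 12 and 4 of 12 and lower for 1, 0 and 1. The part of these lists was not tested. In bulk tissue, fewer cells of a type and less RNA per cell cannot be told apart.

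*Syt1* differed most. Its 3 control libraries had 1850.5, 1859 and 1748 CPM in F/M against 579, 582 and 623 in Cb at 1 month, 1774, 1651 and 1743 against 652, 656 and 648 at 2 months, and 1908, 1861 and 1833 against 562, 566 and 570.2 at 3 months. Cb held 32.7%, 37.8% and 30.3% of the F/M level, and every Cb library lay far below every F/M library of its age. The log2 differences were −1.61 ± 0.10 (SE), −1.40 ± 0.082 and −1.72 ± 0.089 (adjusted p 2.73e-09, 2.45e-11 and 1.23e-09). *Syn1*, the reserve pool gene, had 499, 489.8 and 490.0 CPM in F/M against 213, 207 and 243 in Cb at 1 month, 537, 513 and 562 against 251, 221 and 225 at 2 months, and 508, 494 and 482 against 203, 202 and 218 at 3 months. Cb held less than 45% of the F/M level at each age, with no overlap of the libraries and log2 differences of −1.16, −1.21 and −1.25 (SE 0.080, 0.063 and 0.085). *Unc13a*, the priming factor, had 383, 334 and 384 CPM in F/M against 203, 199 and 286 in Cb at 1 month, 404, 283 and 351 against 231, 181 and 208 at 2 months and 342, 330.1 and 331 against 145, 146 and 264 at 3 months. Its log2 differences were −0.68 ± 0.20, −0.75 ± 0.11 and −0.85 ± 0.21 at the 3 ages, and the libraries of the regions did not overlap. Without Cb control replicate 2, the 1-month difference was −0.58 (adjusted p 0.0448), just under the 1.5-fold minimum.

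The vesicle SNARE gene *Vamp2* and the vesicle protein gene *Syp* differed less, and by like amounts. *Vamp2* had 1019, 1141 and 1079 CPM in F/M against 710.1, 659.8 and 663 in Cb of controls at 2 months, with log2 differences of −0.53, −0.67 and −0.63 at 1, 2 and 3 months (SE 0.093, 0.065 and 0.089). *Syp* had 1290.3, 1534 and 1414 CPM in F/M against 886, 834 and 837 in Cb at 2 months, with log2 differences of −0.55, −0.73 and −0.56 (SE 0.084, 0.072 and 0.11). For both genes the regions did not overlap at any age and the adjusted p was at most 0.000933. The values that were not called, *Vamp2* at 1 month and *Syp* at 1 and 3 months, fell short of the 1.5-fold minimum only. At 3 months, scaling by library totals in place of TMM brought *Vamp2* to −0.52, under that minimum too.

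*Snap25* and *Rims1* were near parity. *Snap25* had 2361, 2344 and 2335 CPM in F/M against 2470.4, 2724 and 2585 in Cb at 1 month, 2727, 2697 and 2697 against 2999, 3153 and 3045 at 2 months and 2999, 2941 and 2963 against 3244, 3302 and 3128 at 3 months. Every Cb library was above every F/M library of its age, by a log2 difference of 0.14 at 1 month (95% interval −0.015 to 0.30), 0.18 at 2 months (0.027 to 0.33) and 0.12 at 3 months (−0.055 to 0.29), and the adjusted p was under 0.1 only at 2 months (0.0372). *Rims1* had 321, 323 and 303 CPM in F/M against 311, 301 and 359.7 in Cb at 1 month, 264, 194 and 238 against 309.9, 279.9 and 299.7 at 2 months and 308, 298 and 290.4 against 249, 247 and 335 at 3 months, so that the regions overlapped at 1 and 3 months. Its log2 difference was 0.038 at 1 month (−0.21 to 0.29), 0.35 at 2 months (0.17 to 0.54) and −0.11 at 3 months (−0.44 to 0.22). Its 2-month difference passed the adjusted p (0.00167) but not the fold minimum. That difference includes F/M control replicate 2 (194 CPM), which is low in long transcripts.

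The giant scaffolds *Pclo* and *Bsn* differed from each other. *Pclo* had 396, 382 and 424 CPM in F/M against 539, 481 and 712 in Cb at 1 month, 393, 230.2 and 305 against 425, 425 and 448 at 2 months, and 404, 385 and 414 against 349, 351 and 412 at 3 months. It was higher in Cb at 1 month (log2 difference 0.53 ± 0.21, adjusted p 0.0428) and 2 months (0.48 ± 0.12, adjusted p 0.00214), under the fold minimum at both, and the regions overlapped at 3 months (−0.11 ± 0.19). The 1-month difference of *Pclo* was 0.35 (adjusted p 0.196) without Cb control replicate 3, the *Tpp1*+/- library, and 0.65 (adjusted p 0.0241, a call) without Cb control replicate 2. At 2 months it was 0.31 (adjusted p 0.00508) without F/M control replicate 2, which is low in long transcripts, and 0.72 (a call) without F/M control replicate 1. *Bsn* had 537, 526 and 501 CPM in F/M against 263, 268 and 511 in Cb at 3 months. Cb control replicate 3, the only female of the 3 Cb controls of that age, lay within the F/M range. The other Cb libraries lay well below every F/M library. The 3-month log2 difference of −0.59 ± 0.27 was called at an adjusted p of 0.0842, moved to −0.97 (adjusted p 0.00632) without that library, and lost its call when any other control library was left out (adjusted p 0.124 to 0.259) and by DESeq2 (0.111). At 1 month *Bsn* had 472, 458 and 502 CPM in F/M against 408, 349 and 481 in Cb, and at 2 months 501, 293 and 401 against 376, 422 and 398. The regions overlapped at both ages, with log2 differences of −0.21 ± 0.20 and −4.6e-05 ± 0.12. The 293 CPM is F/M control replicate 2, which is low in long transcripts, and the 2-month difference of −4.6e-05 includes it.

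**Figure D2:**
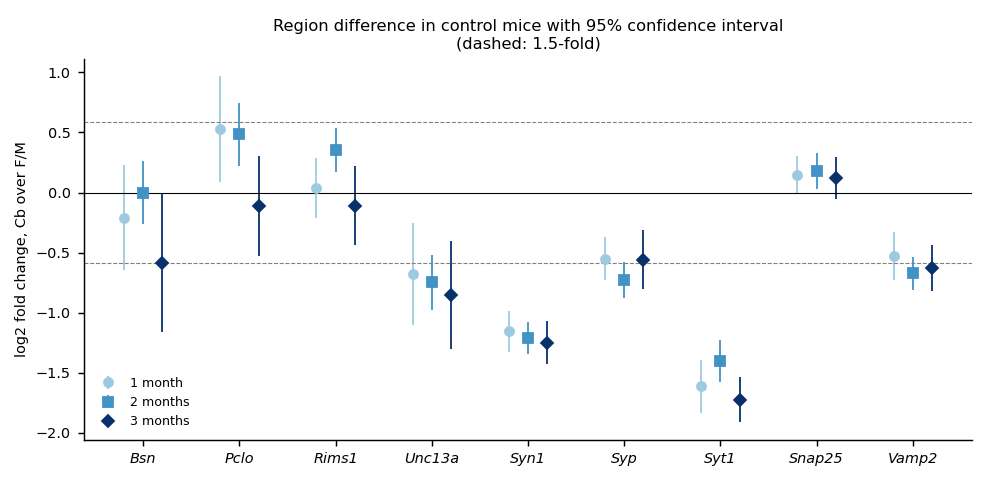
Log2 fold change of Cb over F/M in control mice (n = 3 libraries each) for the 9 members at 1, 2 and 3 months, with 95% confidence intervals and dashed lines at 1.5-fold. *Syt1* lies lowest, between −1.40 and −1.72, *Syn1* between −1.16 and −1.25, and *Snap25* slightly above 0 at all ages.

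No member was called between genotypes in either region at any age. *Tpp1*-/- and control mice were compared within region and age by the same rule of edgeR, and 0 of 9 members passed it in each of the 6 comparisons. The share of all genes called was, in F/M, 0.0112%, 0.737% and 0.464% at the 3 ages in order, and in Cb it was 0.0112%, 2.05% and 0.859%. With shares that low, a count of 0 among 9 genes says little about the members. DESeq2 and limma-voom also called 0 in all 6 comparisons. At an unadjusted p under 0.05, edgeR gave 0 members in either region at 1 month, 3 in F/M (*Syp*, *Snap25*, *Vamp2*) and 0 in Cb at 2 months, and 0 in F/M and 1 in Cb (*Syt1*) at 3 months, beside 1.89% and 7.66%, 16.9% and 9.67%, and 5.94% and 6.49% of all genes. The 54 log2 fold changes ran from −0.34 (*Pclo*, Cb, 1 month) to 0.18 (*Syp*, Cb, 1 month). For 49 of the 54, the 95% interval lay within 1.5-fold in either direction, which leaves out changes of that size. The 5 others were *Bsn* and *Pclo* in Cb at 1 month, *Bsn* in F/M and Cb at 3 months and *Unc13a* in Cb at 3 months, and their intervals reached down to −0.78.

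In F/M at 2 months *Syp*, *Snap25* and *Syt1* had the largest differences among the members, and none of the 3 was called. *Syp* had 1290.3, 1534 and 1414 CPM in controls and 1156, 1252 and 1135 in *Tpp1*-/- mice, so that every *Tpp1*-/- library lay below every control library, which held for *Syp* and *Snap25* and in either direction for 18.3% of all genes. Its log2 fold change was −0.26 ± 0.072 (SE), with an adjusted p of 0.0825, under the fold minimum, without which it would be the only member called, beside 3.17% of all genes. That adjusted p of *Syp* was 0.195 without control replicate 2, the highest library and 1 of those low in long transcripts, 0.226 without control replicate 3, 0.292 and 0.284 without *Tpp1*-/- replicates 1 and 3, 0.257 in a fit of these 6 libraries alone, and 0.0183 by DESeq2. *Snap25* had 2727, 2697 and 2697 CPM in controls and 2131, 2637 and 2352 in *Tpp1*-/- mice, also without overlap (log2 fold change −0.19 ± 0.072, adjusted p 0.196). For *Vamp2* the values were 1019, 1141 and 1079 CPM in controls against 1029.8, 941 and 958, and *Tpp1*-/- replicate 1 lay within the control range (−0.14 ± 0.064, adjusted p 0.267). *Syt1* had 1774, 1651 and 1743 CPM in controls and 1328, 1765 and 1517 in *Tpp1*-/- mice, with *Tpp1*-/- replicate 1 the lowest for both *Syt1* and *Snap25* (−0.17 ± 0.081, adjusted p 0.312). *Syn1* gave −0.0062 ± 0.062, and the active zone genes ranged from 0.010 (*Unc13a*) to 0.15 (*Rims1*). Choroid plexus markers were higher in the same *Tpp1*-/- libraries (8 of 12 called, summed level 549.4 to 743.7 CPM against 249.5 to 640.4 in controls, none of the 12 at 3 counts or fewer throughout a group). Of 10 astrocyte markers 0 were called and 4 passed the adjusted p alone, all higher (6154 to 7614 CPM against 4902 to 5846), and of 11 midbrain and thalamus markers 1 was called and 4 passed it, all higher (180.7 to 236.4 against 136.8 to 190.8 CPM). Cerebellar markers were called higher for 2 of 12 and 4 passed the adjusted p (853.8 to 896.1 against 730.8 to 912.7 CPM). In the lower direction 1 of 10 forebrain markers (683.9 to 720.4 against 761.0 to 777.9 CPM), 1 of 14 pan-neuronal genes (6099 to 6134 against 6145 to 6197 CPM) and 1 of 10 oligodendrocyte markers passed the adjusted p alone. The part of these markers in the members' differences was not tested.

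In F/M at 3 months the groups separated while the differences stayed small. The *Tpp1*-/- and control libraries did not overlap for 8 of 9 members, all but *Pclo*, beside 24.1% of all genes in that comparison, yet the log2 fold changes lay between −0.17 and 0.062. *Rims1* had 308, 298 and 290.4 CPM in controls and 270.5, 269 and 260.0 in *Tpp1*-/- mice (−0.17 ± 0.15, adjusted p 1.00). *Bsn* had 537, 526 and 501 CPM in controls against 483, 482 and 447 (−0.15 ± 0.27). For both active zone genes each *Tpp1*-/- library lay below each control library. The SNARE gene *Snap25* had 2999, 2941 and 2963 CPM in controls against 2732, 2899 and 2800.3 (−0.079 ± 0.081). For *Vamp2* the values were 1023, 1013 and 980.0 against 952, 950.1 and 939 CPM (−0.086 ± 0.089). The vesicle genes *Syn1* (−0.078), *Syt1* (−0.063) and *Syp* (−0.048) also lay lower in *Tpp1*-/- mice without overlap. *Unc13a* was the only 1 of the 8 that was higher in *Tpp1*-/- mice, at 348, 342 and 344 CPM against 342, 330.1 and 331 (0.044 ± 0.21). The estimate of spread behind these tests came from all 12 libraries of that age. In a fit of the 6 F/M libraries alone, *Rims1* (−0.16 ± 0.037, adjusted p 0.0132) and *Bsn* (−0.14 ± 0.039, adjusted p 0.0351) passed the adjusted p but not the fold minimum, and the other 7 members did not pass it (adjusted p 0.128 to 0.459). Microglial markers were higher in these *Tpp1*-/- libraries (2 of 12 called, summed level 579.1 to 639.2 CPM against 448.8 to 482.3), and midbrain and thalamus markers were lower (1 called of 10 tested, 129.6 to 153.5 against 196.1 to 206.8 CPM). Of 10 oligodendrocyte markers 0 were called, and all 10 had log2 fold changes below 0 (median −0.21, 5671 to 6309 against 6738 to 6998 CPM). Of the astrocyte markers 1 of 10 was called, higher (7286 to 7898 against 7066 to 7220 CPM). No cerebellar or forebrain marker was called, but 11 of 12 (966.5 to 1037 against 1115 to 1157 CPM) and 9 of 10 (655.0 to 731.3 against 727.4 to 800.5 CPM) lay below 0. Of these lists only the cerebellar one had genes at 3 counts or fewer throughout a group, *Gabra6* and *Pcp2* in both. The part of these markers was not tested.

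In F/M at 1 month the 3 members that did not overlap were all higher in *Tpp1*-/- mice, beside 14.8% of all genes without overlap and 8.31% in that direction. *Syp* had 1349.6, 1358 and 1377 CPM in controls and 1478, 1502 and 1498 in *Tpp1*-/- mice (0.13 ± 0.084). *Snap25* had 2361, 2344 and 2335 against 2585, 2494 and 2542 CPM (0.11 ± 0.075). *Vamp2* had 980.1, 957 and 947 against 998, 1007 and 1024 CPM (0.070 ± 0.093), and the adjusted p of each of the 3 was 1.00. The same 3 genes lay lower without overlap in F/M at 3 months. The difference of the genotype effect between these ages, tested in a model of all 36 libraries, was −0.17 ± 0.13 for *Syp*, −0.19 ± 0.096 for *Snap25* and −0.15 ± 0.11 for *Vamp2* (adjusted p 0.976, 0.956 and 0.976). At 1 month no marker of another cell type was called in F/M, but 11 of 12 microglial markers lay above 0 in *Tpp1*-/- mice (432.8 to 468.6 CPM against 398.2 to 429.7) and 12 of 12 cerebellar markers below 0 (median −0.38, 726.7 to 821.6 CPM against 809.4 to 857.0, *Pcp2* at 3 counts or fewer in all *Tpp1*-/- libraries), as did 9 of 10 midbrain and thalamus markers tested (median −0.19) and 8 of 10 oligodendrocyte markers (median −0.056), and their part was not tested.

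In Cb, *Syt1* at 3 months gave the clearest separation. It had 562, 566 and 570.2 CPM in controls and 432, 519 and 512 in *Tpp1*-/- mice, with no overlap (8.67% of all genes in that comparison). The log2 fold change was −0.22 ± 0.086 with an unadjusted p of 0.0261 and an adjusted p of 0.644. The lowest of these libraries was *Tpp1*-/- replicate 1, which is low in long transcripts, and without it the log2 fold change was −0.13 ± 0.055 (adjusted p 0.265). With the long-transcript level as a covariate, added after the data had been seen, it was −0.19 ± 0.048 (adjusted p 0.0881, under the fold minimum and so not a call). Microglial markers were higher in the same *Tpp1*-/- libraries (8 of 12 called, summed level 326.2 to 507.4 CPM against 159.7 to 194.1, none at 3 counts or fewer throughout a group), as was 1 of 10 astrocyte markers (6849 to 6980 against 6235 to 6389 CPM). No oligodendrocyte or forebrain marker was called, but 10 of 10 (median −0.17) and 8 of 10 (median −0.32) lay below 0. The part of these markers was not tested. At 2 months *Syn1* did not overlap (251, 221 and 225 CPM in controls, 215, 211 and 214 in *Tpp1*-/- mice, −0.12 ± 0.063, adjusted p 0.577), beside 18.1% of all genes. The other 8 members at that age lay within −0.061 to 0.082. At 1 month none of the 9 separated, and the 7.99% of genes that did are the background for that count.

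**Figure D3:**
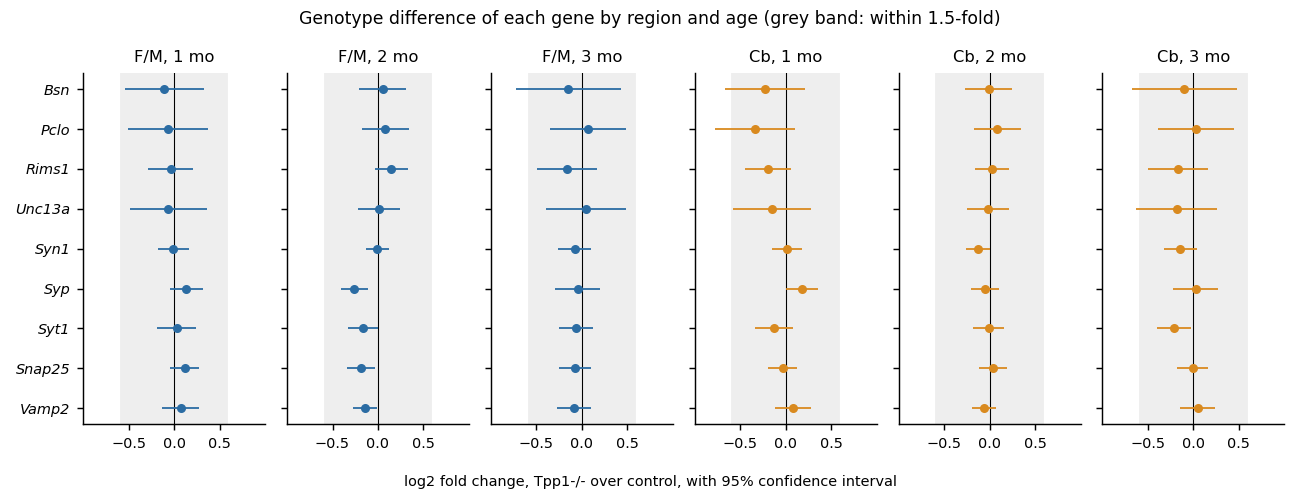
Log2 fold change of *Tpp1*-/- over control with its 95% confidence interval for the 9 members in F/M (blue) and Cb (orange) at 1, 2 and 3 months, 3 libraries per group, with the range within 1.5-fold in grey. All points lie inside the grey band, and the intervals of *Bsn*, *Pclo* and *Unc13a* are wide at 1 and 3 months.

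The genotype effect did not pass the test of a difference between Cb and F/M for any member at any age (0 of 9 at each age, adjusted p under 0.1, beside 0%, 2.97% and 0.00581% of all genes), and DESeq2 and limma-voom gave 0 as well. At an unadjusted p under 0.05 the edgeR test, passed by 1.94%, 11.5% and 3.51% of all genes, gave 1 member, *Snap25* at 2 months (0.23 ± 0.10, Cb minus F/M, adjusted p 0.397), which passed when F/M *Tpp1*-/- replicate 2 was left out (0.32, adjusted p 0.066). Between ages, 0 of 9 members passed in either region when 3 months was compared with 2 months (beside 0.393% of genes in F/M and 1.44% in Cb) or with 1 month (0.153% and 0.458%), and 0 did by DESeq2 and limma-voom. At an unadjusted p under 0.05 edgeR also gave 0, beside 8.12% and 6.41% of genes for 3 against 2 months and 5.41% and 7.91% for 3 against 1 month. For *Syp* in Cb, the difference between 3 months and 1 month was −0.15 ± 0.13 (adjusted p 0.803) and passed without *Tpp1*-/- replicate 1 of 3 months (−0.33, adjusted p 0.072). Levels themselves were not tested between ages, since age and processing cannot be told apart.

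The members differed in how much they varied among replicates, and the longest ones varied most. The SD of log2 CPM within groups, pooled over all 12, was 0.33 for *Bsn*, 0.29 for *Pclo* and 0.28 for *Unc13a*, against 0.19 for the median gene. It was 0.17 for *Rims1* and between 0.067 (*Snap25*) and 0.11 (*Syp*) for the other 5 members, all below the median gene. The 3 lowest deviations of *Bsn* and of *Pclo* from their group means, and the 2 lowest of *Unc13a*, fell in libraries low in long transcripts, whereas the highest, 0.62 for *Bsn*, 0.56 for *Unc13a* and 0.46 for *Pclo*, fell in other Cb libraries. In Cb of *Tpp1*-/- replicate 1 at 3 months *Bsn* had 184 CPM, *Pclo* 226 and *Unc13a* 119.7, while *Syp* (1138) and *Vamp2* (756) were the highest of their 6 Cb libraries. At 1 month Cb of *Tpp1*-/- replicate 1 had the lowest *Bsn* (207 CPM), *Pclo* (276) and *Unc13a* (125) and the highest *Syp* (1188) and *Vamp2* (820.0) of its 6. *Syt1* was also lowest in both of these Cb libraries (432 and 449 CPM). In F/M at 2 months control replicate 2 stood the same way for the long members, with *Bsn* at 293 CPM, *Pclo* at 230.2 and *Syp* at 1534. Another library, Cb of control replicate 3 at 3 months, was the only female of its group. There *Bsn* (511 CPM against 263 and 268) and *Unc13a* (264 against 145 and 146) were high, and *Pclo* (412 against 349 and 351) less so. In its longest transcript *Bsn* had 59.8% GC and *Unc13a* 55.1%, against 45.4% for *Pclo* and 49.2% for the median gene. The median deviation of 260 genes with long and GC-rich transcripts was 0.34 in that library and at most 0.20 in the other 35. This set was defined after these values had been seen. Its limits of length and GC are not given here and need not match those of the long-transcript level. Its level is therefore a description, and no test of the high values of *Bsn* and *Unc13a*. The part of transcript length and base composition in these values was not tested.

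Without the low library, the genotype differences of the long members moved upward in Cb, where that library was *Tpp1*-/-, and downward in F/M, where it was a control. In Cb at 3 months without *Tpp1*-/- replicate 1, *Pclo* went from 0.031 to 0.30 ± 0.075 (adjusted p 0.0761, under the fold minimum), *Bsn* from −0.10 to 0.19 ± 0.20 and *Unc13a* from −0.18 to 0.0022 ± 0.19. Without control replicate 3 of the same age, *Bsn* went to 0.29 ± 0.24. In Cb at 1 month without *Tpp1*-/- replicate 1, *Pclo* went from −0.34 to −0.085 ± 0.13, *Bsn* from −0.23 to 0.038 ± 0.12, and *Unc13a* from −0.15 to 0.10 ± 0.12. In F/M at 2 months without control replicate 2, *Pclo* went from 0.082 to −0.092 ± 0.089 and *Bsn* from 0.052 to −0.13 ± 0.084.

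**Figure D4:**
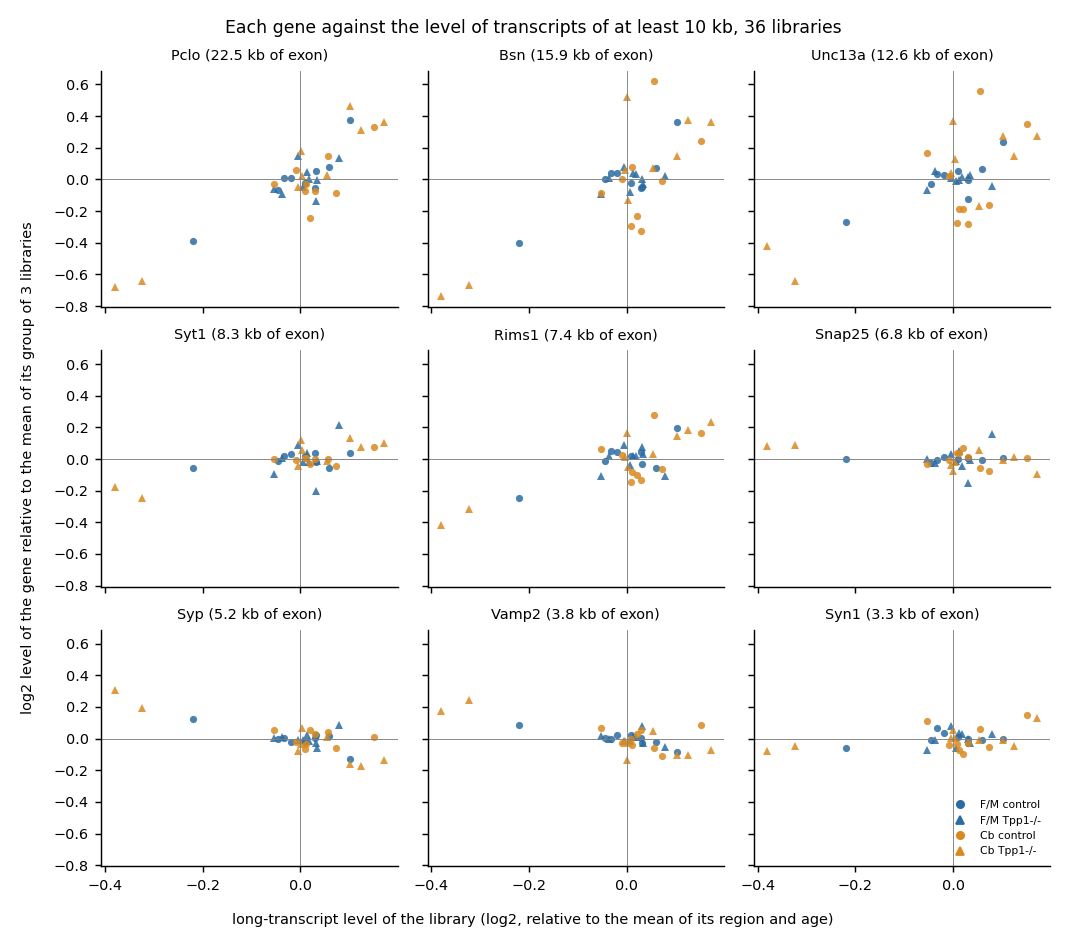
Log2 level of each member in each of the 36 libraries, relative to the mean of its group of 3, against the long-transcript level of the library, which is relative to the mean of its region and age, with members ordered by exon length. *Pclo*, *Bsn* and *Unc13a* are low in the 3 libraries at the left (−0.38, −0.32 and −0.22), *Syp* (0.13 to 0.31) and *Vamp2* (0.085 to 0.24) lie above 0 there, and *Snap25* and *Syn1* stay between −0.15 and 0.16 in all libraries.

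The wider release machinery was described by 84 other genes in 4 lists: 21 of the active zone, 30 of synaptic vesicles, 17 of SNARE assembly and fusion, and 16 of vesicle endocytosis. Their regional differences ran in both directions. In controls 17, 17 and 13 were called higher in Cb at 1, 2 and 3 months, beside 15.8%, 17.4% and 17.8% of all genes, and 25, 22 and 27 lower, beside 21.1%, 21.9% and 19.9%. Of the 30 vesicle protein genes 11, 9 and 12 were called lower in Cb and 4, 4 and 3 higher, and of the 21 active zone genes 6 were called lower at each age and 8, 9 and 6 higher. The lists were not tested against each other or against other genes. The median log2 difference was −0.11, −0.13 and −0.14 at the 3 ages, against 0.020, −0.0057 and 0.042 for all genes, and −0.53, −0.67 and −0.59 for the 9 members. The largest difference was in *Stx1a*, syntaxin 1A, the partner of SNAP-25 and synaptobrevin 2 in fusion, with 192, 170.1 and 168 CPM in F/M and 5.55, 5.54 and 5.64 in Cb of controls at 1 month (log2 difference −4.98 ± 0.099, and −5.46 and −5.19 at 2 and 3 months). *Cplx3*, a complexin (−4.05), *Rimbp2*, a RIM-binding protein (−3.70), and the synaptotagmins *Syt5* (−3.41) and *Syt17* (−3.10) followed at 1 month. Relatives of the members were called in both directions. Among those lower in Cb at all 3 ages were, beside *Syt5* and *Syt17*, the Munc13 gene *Unc13b* (1.30 ± 0.060 RPKM in Cb against 3.39 ± 0.13 in F/M at 1 month), the synapsin gene *Syn2* (43.2 ± 0.914 against 71.2 ± 2.02) and *Syt6*. Among those higher in Cb at all 3 ages were *Syt9*, *Syt12* and *Syt2*, a fast calcium sensor like *Syt1*, with 69.5 ± 5.98 RPKM in Cb and 10.2 ± 1.06 in F/M at 1 month, close to the 71.3 ± 2.97 RPKM of *Syt1* in Cb, and *Unc13c* (28.5 ± 1.22 against 8.13 ± 1.31 RPKM), *Vamp1* (31.1 ± 0.845 against 17.2 ± 1.64) and *Cadps2* (39.5 ± 1.82 against 11.9 ± 0.409). These relatives were named after their values had been seen.

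All genotype calls in the wider machinery were at 2 months. None of the 84 genes was called in either region at 1 or 3 months, where an unadjusted p under 0.05 gave 1 in F/M and 6 in Cb at 1 month and 3 and 12 at 3 months, beside 1.89%, 7.66%, 5.94% and 6.49% of all genes in the same order. At 3 months 66 of 84 lay below 0 in Cb (median −0.10) and 64 of 84 in F/M (median −0.058), against medians of −0.0027 and −0.0026 for all genes. The postsynaptic genes lay below 0 for 12 of 16 in Cb and 13 of 16 in F/M (median −0.060 in both), and the pan-neuronal genes for 11 of 14 in each region (median −0.028 and −0.031). DESeq2 and limma-voom each gave counts of 0 at 1 and 3 months as well. In F/M at 2 months 1 of 84 was called, beside 0.737% of all genes, and 27 of 84 had an unadjusted p under 0.05, beside 16.9%. It was *Ston2*, an endocytic adaptor, with 20.97, 17.6 and 19.6 CPM in controls and 30.5, 29.3 and 29.6 in *Tpp1*-/- mice (0.62 ± 0.12, adjusted p 0.0212). It lost its call without control replicate 2 and with the long-transcript covariate.

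In Cb at 2 months 5 of 84 were called, all lower in *Tpp1*-/- mice, beside 2.05% of all genes, of which 310 were lower and 43 higher, and 13 of 84 had an unadjusted p under 0.05, beside 9.67%. *Doc2a*, a calcium sensor of spontaneous and asynchronous release, had 2.88, 4.57 and 3.495 CPM in controls and 0.728, 0.545 and 0.437 in *Tpp1*-/- mice (log2 fold change −2.62 ± 0.24, adjusted p 1.14e-06). *Slc17a6*, the vesicular glutamate transporter VGLUT2, had 73.9, 100.4 and 86.7 CPM in controls against 41.9, 22.9 and 31.1 (−1.44 ± 0.15). Both genes fell more than 2-fold, *Doc2a* from a level of a few CPM. *Stx1a* had 5.003, 4.34 and 4.04 CPM against 2.29, 2.54 and 1.87 (−0.97 ± 0.15). *Otof*, which encodes the hair cell calcium sensor otoferlin, had 3.34, 5.56 and 5.24 against 2.29, 2.63 and 2.81 (−0.91 ± 0.18), and *Syt5* had 14.1, 10.9 and 11.1 against 8.48, 4.91 and 8.62 (−0.71 ± 0.16). The *Tpp1*-/- and control libraries of these 5 genes did not overlap, as held for 18.1% of all genes. In control mice 4 of the 5, all but *Slc17a6*, were called at least 1.5-fold higher in F/M than in Cb at 2 months. Midbrain and thalamus markers were lower in the same *Tpp1*-/- Cb libraries (4 of 11 called, median −0.50, summed level 107.6 to 121.6 CPM against 164.3 to 173.7, with *Slc6a3*, *Foxa1* and *Gbx2* at 3 counts or fewer in all *Tpp1*-/- libraries and *Foxa1* and *Gbx2* also in all controls), and their part in the difference was not tested. Choroid plexus markers were higher there (7 of 12 called, 1638 to 1817 CPM against 1004 to 1302). Of 10 forebrain markers 1 was called lower (140.2 to 157.2 against 146.9 to 155.3 CPM), and of 10 oligodendrocyte markers 9 lay below 0 and 2 passed the adjusted p alone (median −0.25, 5720 to 7202 against 6987 to 7265 CPM). No pan-neuronal or cerebellar gene was called, but 13 of 14 (4549 to 4838 against 4843 to 4947 CPM) lay below 0 and 10 of 12 (11849 to 13697 against 11308 to 11431 CPM) above 0, and the part of these lists was not tested either. None of these 5 genes is a member, and the members' own log2 fold changes in that comparison lay between −0.12 and 0.082.

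**Figure D5:**
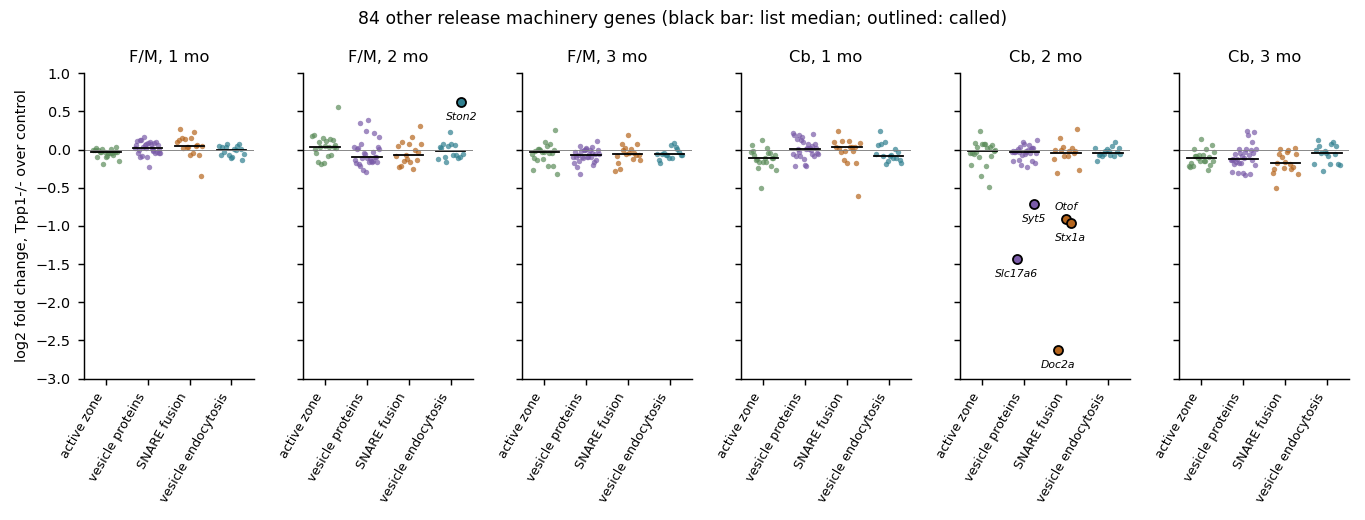
Log2 fold change of *Tpp1*-/- over control for 84 other release machinery genes in 4 lists, by region and age, with list medians (black bars) and called genes outlined and named. *Ston2* (0.62) is called in F/M at 2 months and 5 genes from −0.71 to −2.62 in Cb at 2 months, and the medians lie near 0.

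The genes most like each member in pattern were found among 10691 genes by the root mean square difference between their 12 group means of log2 CPM, each centred on its own mean. For *Vamp2* the closest was *Syt11* (0.042), and the 2 closest were, for *Syn1*, *Dusp7* (0.049) and *C2cd2l* (0.074), for *Snap25* *Ghitm* and *Scrn3* (0.049 each), and for *Syp* *Tbc1d14* (0.070) and *Adap1* (0.073). *Syt1* had *Pcsk2* (0.097) and *Gpr12* (0.10), the least close of the 9. *Unc13a* had *Ptprk* (0.049) and *Smurf1* (0.080), *Rims1* *Daam1* (0.058) and *Atxn1l* (0.069), *Bsn* *Rybp* and *Atf6* (0.062 each), and *Pclo* *4932438A13Rik* (0.066) and *Bod1l* (0.071). Within the members, *Syp* and *Vamp2* were closest to each other (0.090), and the next closest pair was *Pclo* and *Rims1* (0.15). The 12 group means share their libraries and the regional difference, and they span the 3 ages, whose annotations and strand settings differed, so these distances are a description.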

How the data were processed

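Poly(A) RNA of 36 libraries was prepared with a stranded kit. The authors aligned reads to mm10 with STAR 2.5.2b and deposited whole-number counts per gene from featureCounts. Per the file headers, version 1.6.3 with GENCODE M21 served at 1 month, 1.6.2 with M16 at 2 months and 1.6.2 with M18 at 3 months, with strand setting 1, 2 and 1, so levels were not tested between ages. Here genes passing filterByExpr (17916, 17229 and 17224) were fitted with the 12 libraries of an age by edgeR 4.0.16 (quasi-likelihood F-test, two-sided, TMM, Benjamini-Hochberg over all genes tested), and 18322 genes in 1 model of all 36 for differences between ages. Genotype and region calls needed an adjusted p under 0.1 and a fold of 1.5 or more, and the other contrasts only the adjusted p. DESeq2 1.42.0 and limma 3.58.1 served as alternatives, as did other scalings, filters, covariates and left-out libraries. Scripts were tested on simulated data. Same-numbered F/M and Cb libraries of 1 month deviated together in controls (correlations of 0.183, 0.113 and 0.117) and in *Tpp1*-/- mice (0.15, 0.097 and 0.09). This pairing was seen in the data and is not given by the labels, and the main fits did not use it. Named were all 9 members, *Tpp1*, up to 5 called, non-overlapping genes of the wider lists per comparison with the largest changes, and the 2 genes most like each member with a mean log2 CPM of at least 3. Relatives of the members were named outside this rule, after their values had been seen. Some genes of these lists are not reported here. Members and lists were chosen with earlier results of these data known. Nothing states that libraries of a group come from separate litters, so p-values measure the spread between these samples.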

Additional observations from a re-analysis of the deposited data

Results flagged for a closer look

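No member was among the results that stood apart, which all concern differences of the genotype effect between regions or ages in the other release machinery genes, by edgeR with Benjamini-Hochberg adjusted p. At 2 months, subtracting the F/M effect from the Cb effect gave −2.41 (log2, adjusted p 2.36e-05) for *Doc2a* and −1.79 (2.36e-05) for *Slc17a6*. For the SNARE gene *Stx1a* this difference was −0.71 (0.0326), and for *Otof* −0.97 (0.0139). Smaller differences of the same sign were found for *Ston2* (−0.60, 0.0972), the Munc13 relative *Unc13c* (−0.56, 0.0364), the kinase gene *Brsk1* (−0.40, 0.0464) and the synaptobrevin relative *Vamp1* (−0.34, 0.0947). The sign does not say which region changed. For *Ston2* the F/M effect itself was 0.62, a call lost without F/M control replicate 2. *Brsk1* had 391, 316 and 376 CPM in F/M of *Tpp1*-/- mice against 306, 315 and 324 in controls. In Cb it had 163.0, 163 and 171 against 197, 190 and 186.

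Between ages, the genotype effect in Cb at 3 months minus that at 2 months was 2.45 (adjusted p 0.000168) for *Doc2a* and 1.28 (0.00208) for *Slc17a6*. The effect of *Cplx1* in Cb at 3 months was 0.41 lower than at 1 month on the log2 scale (a difference of −0.41, adjusted p 0.0760). In F/M, the effect at 3 months minus that at 2 months was −0.86 (0.0592) for *Unc13c* and −0.45 (0.0387) for *Brsk1*. Groups held 3 libraries each, too few for the test of single outlying samples.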

How the results depend on the processing

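Of 3024 alternative values of the members, 3001 kept their direction where called and their side of the threshold, 11 lost a call, 12 gained one and 0 reversed a call, while 199 changed sign without a call on either side. All 11 losses were regional (*Bsn*, *Vamp2*, *Unc13a*), and only some of them are described above. Without the fold minimum, 6 members were called between regions at 1 month and 8 at 2 months, and 67 wider genes at 2 months. It also gave 1 member and 4 wider genes by genotype in F/M at 2 months and 8 wider genes in Cb at 2 months. Scaling by library totals left 3 members called between regions at 3 months. With no filter on low counts, 1 wider gene was called by genotype in Cb at 1 month, and 4 and 2 for Cb at 3 months against 2 and 1. The long-transcript covariate, added after seeing the data, gave 0 wider genes by genotype in F/M at 2 months, 14 for the regional difference of the effect at 2 months, and 5 and 1 for F/M at 3 months against 2 and 1. Without the 3 libraries low in long transcripts, also added later, 1 wider gene was called for F/M and 11 for Cb at 3 months against 1, and DESeq2 gave 1 for F/M there. At an adjusted p under 0.05, 1 wider gene was called for F/M at 3 months against 2 and 0 for Cb at 3 months against 1.

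Leaving out 1 library gave 0 to 4 wider genes by genotype in F/M at 2 months (4 without control replicate 1, 0 without control replicate 2). For the regional difference of the effect at 2 months it gave 0 to 1 members and 4 to 11 wider genes. For the effect between ages it gave, in Cb, 0 to 1 members and 0 to 15 wider genes at 3 months against 1 (15 without *Tpp1*-/- replicate 1 of 3 months) and 2 to 4 wider genes at 3 months against 2, and in F/M 0 to 2 wider genes at 3 months against 2. The cause of these shifts was not tested.

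With the replicate number as a block, the 3 members called between regions at 1 month, the age at which it paired the control libraries, were again *Syt1*, *Syn1* and *Unc13a*. A correlation over 0.1 was found in 3 of 9 same-numbered pairs of control and *Tpp1*-/- in Cb and in 2 of 9 in F/M. It was found in 1 of 9 pairs of the regions in *Tpp1*-/- mice. Those regions still deviated together, weakly, by number at 1 month (0.15, 0.097 and 0.09) and 2 months (0.086, 0.078 and 0.047). Their pairs of different number gave at most 0.005 and −0.013 at these ages. With the block, wider genes called by effect between ages were 1 for F/M and 4 for Cb at 3 months against 2, and 0 for Cb at 3 months against 1, and the members' counts were the same. Sex could not be fitted at 2 months, where all mice were male. With 3 libraries a group, some intervals of *Bsn*, *Pclo* and *Unc13a* reach beyond 1.5-fold.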
